A study of Mus musculus with 52 samples.

Results

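The Wdr34 clone labelled 3 is a single ciliated mutant clone of Cilia-APEX-IMCD3 cells, and its 4 libraries (of 52 in the series, from 13 groups) were chosen by their labels and compared with the 16 ciliated control libraries. IMCD3 is a mouse cell line from the inner medullary collecting duct of the kidney, and Cilia-APEX is a version of it that carries a cilium-targeted peroxidase. Clone 3 is labelled a homozygous mutant, made by CRISPR base editing with a cytosine base editor, and was ciliated when harvested. The 16 control libraries come from 4 clones, D8, H12, A4 and G7, with 4 libraries each, which received the same base editor and an empty guide plasmid, so that editor, transfection and cloning are shared by mutant and controls. Clone 3 was also set against 8 libraries of the other ciliated mutants, the Wdr34 clone labelled 1 and the Wdr60 clone. Per the study's methods, cilia were induced by serum starvation, whereas the sample labels give full serum for every library. The 4 libraries of a clone are technical replicates of that clone, so the p-values measure the spread among libraries, and an effect of the Wdr34 edit and a property of this clone cannot be told apart. With 1 mutant and 4 control clones, an exact permutation test over clones cannot give a p under 0.2.

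Wdr34 and Wdr60 are the intermediate chains of dynein-2, the motor that carries cargo from the tip of the cilium back to the cell body in intraflagellar transport (IFT). Collecting duct cells are polarised epithelial cells, joined by E-cadherin (Cdh1) and filled with simple keratins such as Krt8 and Krt18. Mesenchymal cells lack such junctions, carry vimentin (Vim) filaments and lay down fibrillar collagens, proteoglycans and elastin, and intermediate states between both kinds are known from kidney injury and fibrosis.

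The labels do not say which Wdr34 edit clone 3 carries. The study made the changes Arg183Trp and Gly394Ser, and its listed protospacers are printed here because the whole comparison rests on these edits. The edited C is in capitals, at position 5 from the 5′ end in both, and the last 3 bases are the PAM. The Gly394Ser sequence is printed as the reverse complement of the one listed, so that it reads towards its PAM.
Arg183Trp: tggtCggtgagtgagagcttgg
Gly394Ser: gggcCaccatggggagagaagg
On the GENCODE vM21 transcript of Wdr34 (GRCm38, chromosome 2, minus strand) the first edited base lies at position 30034764, in exon 3 of 9, 1 base before the end of the exon, in codon 183 (CGG), and the listed bases past the end of that exon were not placed. The other lies at position 30032439 in exon 7, in codon 394 (GGC), with the protospacer on the strand opposite to the gene. The study also names an unintended heterozygous missense change of Wdr34 in its Gly394Ser cells.

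Library totals were 16076746 to 21100046 counts in clone 3 and 14816218 to 28084979 in the controls, so 1 CPM (a count scaled to library size, by the trimmed mean of M values, TMM) stands for 14.8 to 28.1 counts. No pair of libraries of a clone was identical among 30 pairs. Control G7 stood apart from the other controls in epithelial genes: Cdh1 was at a mean of 15.1 CPM there against 629.5, 654 and 663 CPM in D8, H12 and A4. For this reason the counts of calls in the gene lists, and some genes, are also given against the 12 libraries of D8, H12 and A4. Since G7 was set apart by its epithelial genes, values of epithelial and mesenchymal genes without it are a description, given with no p. Their counts of calls without it cannot serve as a test, because G7 was set apart by values of this kind. In clone 3, replicate 2 was higher than its 3 sister libraries in a few chemokine genes, as described with those genes.

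Of 12553 genes tested, 457 were higher in clone 3 (3.64%) and 271 lower (2.16%), where a call needs an edgeR adjusted p under 0.05 with a shift of 1 or more on the log2 scale. All 4 clone 3 libraries lay above all 16 control libraries for 808 genes (6.44%) and below them for 659 (5.25%). Among the genes called, 390 of 457 higher ones lay outside the control range but 85 of 271 lower ones did. Most of the genes called higher were close to silent in the controls, since 255 of 457 had a control mean under 1 CPM. Without G7, 798 genes were higher (6.38%) and 834 lower (6.67%) of 12500 tested, and 440 of the 457 and 266 of the 271 were among them. Counts of list members without G7 are to be set beside these shares. G7 was also the control most like clone 3 (correlation 0.954, against 0.934, 0.945 and 0.939 for D8, H12 and A4). For every list, counts without it are therefore a description and no independent check. The count of lower genes also turned on clone 3 itself, and was 131 to 164 when any 1 of its libraries was left out, and 173 without control D8. Of the genes chosen by rule, 17, 16, 16 and 18 lost their call without clone 3 replicate 1, 2, 3 and 4. Whichever 1 of the 4 was left out, the higher calls of Cdkn2c, Ephb6 and Mgp and the lower calls of Bmp7, Ccnd1, Ehf, F3, Hoxd3, Hoxd4, Itga2, Krt8, Krt18, Rgs16 and Sema4g were lost. The lower calls of Adam8 and Wnt4 were lost without replicate 1, 3 or 4, that of Muc1 without 1, 2 or 4, that of Vldlr without 2 and that of Msx1 without 4. The calls depend on the unit of replication: with the clone as a random block (voomLmFit), 241 genes were higher and 10 lower. With the 4 libraries of each clone summed, 1 mutant sample was left, which shows no spread for the mutant. The random block fit uses 1 correlation shared by all genes and holds 1 mutant clone. Its p-values thus do not measure each gene's own spread between clones. The random block also ended the higher calls of Ccl2, Ccl20, Des, Ephb6, Gata3 and Iigp1 and the lower calls of Bmp7, Cd68 and Sema4g, besides those given with their genes.

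The targeted gene Wdr34 was at 24.6, 19.9, 21.0 and 22.9 CPM in the 4 clone 3 libraries and at 26.9 to 50.4 (median 43.1) CPM in the 16 control libraries. Every clone 3 library was below every control library, and the log2 fold change was -0.90 ± 0.15 SE, adjusted p = 1.63e-04, which misses the fold limit. With the clone as a random block the adjusted p for Wdr34 was 0.392. Wdr34 lies on chromosome 2, whose tested genes had a median log2 fold change of -0.42 in clone 3, and the part of that shift in its level was not tested. Wdr60, its partner chain, was at 20.2 to 21.2 CPM against 21.3 to 28.9 CPM (log2 fold change -0.25 ± 0.08 SE, adjusted p = 0.0333). For Wdr60 the adjusted p was 0.104 without clone 3 replicate 2 and 0.97 with the random block. The heavy chain Dync2h1 was at 24.5 to 26.3 CPM against 21.6 to 32.7 CPM (log2 fold change -0.08 ± 0.11 SE, adjusted p = 0.652), and the light intermediate chain Dync2li1 at 32.5 to 35.2 CPM against 24.8 to 49.0 CPM (log2 fold change -0.06 ± 0.14 SE, adjusted p = 0.795). Clone 3 overlapped the controls in both. Of 38 dynein-2 and IFT genes tested, edgeR called 0 in either direction, and voomLmFit called 0. By edgeR, 12 of the 38 were at an unadjusted p under 0.05 (3 higher and 9 lower), beside 4182 of 12553 over all genes. Their median log2 fold change was -0.07, beside -0.04 over all genes.

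Among 46 other cilium genes, 1 was called higher and 1 lower (2.17% each, beside 3.64% and 2.16% of all genes), and without G7 1 and 3, where 6.38% and 6.67% of all genes were called higher and lower. Dcdc2a, a doublecortin-domain protein of the ciliary axoneme, was at 4.04, 5.79, 5.47 and 5.78 CPM in clone 3 and 30.0 to 109 (median 59.9) CPM in the controls. No clone 3 library reached the lowest control library, and the log2 fold change was -3.62 ± 0.42 SE, adjusted p = 3.72e-06. Cc2d2a, a transition zone protein, was at 12.5, 12.3, 12.8 and 12.6 CPM against 1.85 to 9.67 (median 5.43) CPM (log2 fold change 1.19 ± 0.32 SE, adjusted p = 0.0111). For Cc2d2a the gap to the highest control library was small, and with the clone as a random block the adjusted p was 0.142, against 0.0432 for Dcdc2a.

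Against all 4 controls, the calls among matrix genes were in 1 direction. Over 98 tested members of 5 lists (collagens, glycoproteins, proteoglycans, basement membrane, and matrix modifying enzymes), 18 were called higher and 0 lower, beside 3.64% and 2.16% of all genes. Members such as Nov and Dse, with 0 counts in the controls, passed the filter through clone 3 and could only be called higher. With the clone as a random block 16 members were higher. Summed over each whole list, clone 3 lay inside the control range for glycoproteins (5482 to 5959 against 3112 to 8433 CPM). So did proteoglycans (1085 to 1236 against 804 to 1369 CPM) and basement membrane genes (3534 to 4229 against 3330 to 4741 CPM). Collagens overlapped that range (1629 to 1741 against 1059 to 1702 CPM), and the enzymes lay above it (2070 to 2131 against 1388 to 1929 CPM). Without G7, 31 members were higher and some were lower, 4 collagens, 2 glycoproteins, 3 basement membrane genes and 1 enzyme. The lists were drawn up with earlier results of these data known, so their counts are not independent evidence of a direction. In bulk RNA, a change in the share of cells of a kind and a change of RNA per cell cannot be told apart.

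Of 20 collagen chains tested, 4 were called higher (20%) and 0 lower, beside 3.64% and 2.16% of all genes. Their median log2 fold change was 0.23. Col6a1, a chain of the beaded-filament collagen VI, was at 71.9, 75.5, 78.9 and 76.8 CPM in clone 3 and 1.55 to 7.47 (median 3.11) CPM in the controls. Col6a2, the second chain of the same trimer, was at 9.88, 9.84, 10.6 and 9.99 CPM against 0.054 to 0.682 (median 0.377) CPM. The groups were far apart in both, with log2 fold changes of 4.25 ± 0.37 SE, adjusted p = 5.76e-08 for Col6a1 and 4.78 ± 0.30 SE, adjusted p = 3.71e-10 for Col6a2. Col16a1, a fibril-associated collagen, was at 38.4, 35.6, 31.4 and 35.6 CPM against 4.02 to 13.6 (median 7.92) CPM (log2 fold change 2.11 ± 0.23 SE, adjusted p = 1.94e-06). Col11a1, a minor chain of cartilage fibrils, was at 2.53, 3.42, 3.54 and 1.53 CPM against 0 to 0.318 (median 0) CPM (log2 fold change 5.45 ± 0.59 SE, adjusted p = 1.41e-06). Collagen Col1a1, the main fibrillar chain of fibroblasts, was at 0.927 to 1.51 CPM in clone 3, inside the 0.191 to 2.90 CPM of the controls. Without G7, 5 collagens were higher and 4 lower, beside 6.38% and 6.67% of all genes.

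**Figure D1:**
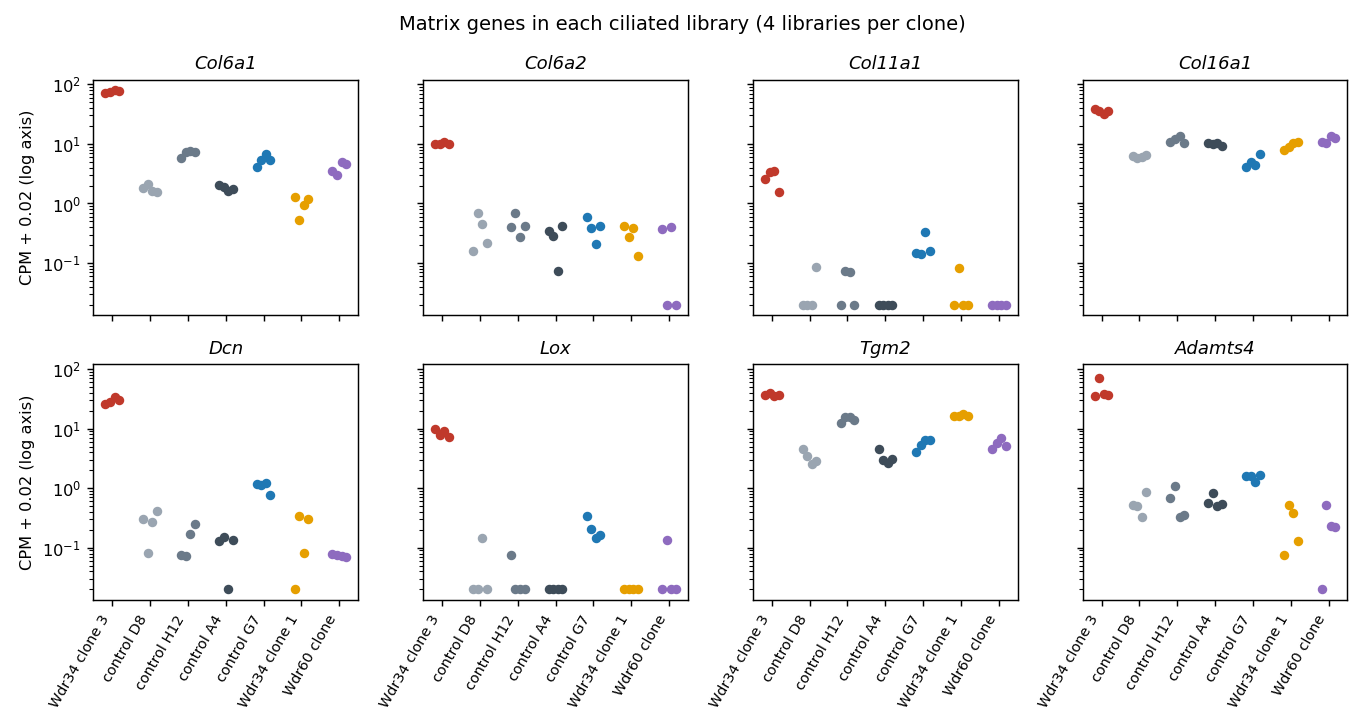
Levels of 8 matrix genes as CPM plus 0.02 on a log axis, with 1 point per library and 4 libraries for each of 7 ciliated clones. In each panel the 4 clone 3 libraries lie above every library of the control and other mutant clones, for Col6a1 at 71.9 to 78.9 CPM against 1.55 to 7.47 CPM in the controls.

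Among matrix glycoproteins, 6 of 27 tested were called higher (22.2%) and 0 lower, beside 3.64% and 2.16% of all genes. The fit without G7 gave 10 and 2 of 26, beside 6.38% and 6.67%. Nov (Ccn3), a matricellular signalling protein, had 219 counts in clone 3 and 0 in the 16 control libraries together, at least 279-fold higher against a floor of 3 counts over the control group. Eln, the elastin precursor, was at 7.83, 5.79, 6.74 and 6.57 CPM against 0.054 to 1.02 (median 0.133) CPM (log2 fold change 4.09 ± 0.56 SE, adjusted p = 2.49e-05). Mgp, an inhibitor of calcification, was at 2.47, 2.49, 3.42 and 3.93 CPM against 0 to 1.81 (median 0.183) CPM (log2 fold change 2.77 ± 0.89 SE, adjusted p = 0.0318). Tnxb, which encodes tenascin-X, was at 1.39, 1.22, 1.55 and 1.20 CPM against 0 to 1.04 (median 0.194) CPM (log2 fold change 2.44 ± 0.62 SE, adjusted p = 0.00815). Osteopontin (Spp1), a secreted phosphoprotein of injured tubules named here after its values were seen, was at 1824 ± 87.1 (SD, n = 4) CPM against control means of 429.7, 87.8, 393 and 657 CPM in D8, H12, A4 and G7. All clone 3 libraries were above all control libraries in these 5 genes, but the gap was narrow for Mgp and Tnxb, and with the clone as a random block the adjusted p for Tnxb was 0.627.

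Proteoglycans and basement membrane gave 2 of 15 (13.3%) and 1 of 14 (7.14%) called higher, and 0 lower, beside 3.64% and 2.16% of all genes. Without G7, 5 proteoglycans were higher and 0 lower, and 2 basement membrane genes were higher and 3 lower, beside 6.38% and 6.67%. Dcn (decorin), a small proteoglycan that binds collagen fibrils, was at 26.0, 28, 34.5 and 30.2 CPM against 0 to 1.21 (median 0.190) CPM, with a log2 fold change of 6.28 ± 0.56 SE, adjusted p = 1.01e-07. Dse, the epimerase that turns chondroitin into dermatan sulfate, a chain that decorin carries, had 449 counts in clone 3 and 0 in all control libraries, at least 572-fold higher. Smoc1, a calcium-binding basement membrane protein, had 211 counts in clone 3 and 1 in the controls, a ratio of 807 (exact 95% counting interval 143 to 32006). These genes were close to silent in the controls and low but clearly present in clone 3.

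Matrix modifying enzymes gave 5 of 22 called higher (22.7%) and 0 lower, beside 3.64% and 2.16% of all genes. The list median was 0.65. The fit without G7 gave 9 and 1, beside 6.38% and 6.67%, and the random block 3 and 0. Lox, the lysyl oxidase that cross-links collagen and elastin, was at 9.76, 7.82, 9.22 and 7.26 CPM against 0 to 0.319 (median 0) CPM (log2 fold change 6.99 ± 0.58 SE, adjusted p = 3.47e-08). Tgm2, a transglutaminase that cross-links matrix proteins, was at 36.8, 39.2, 35.8 and 36.8 CPM against 2.54 to 15.6 (median 4.52) CPM (log2 fold change 2.48 ± 0.41 SE, adjusted p = 1.89e-04). Loxl3, a lysyl oxidase of the same family, had a log2 fold change of 1.53 ± 0.23 SE, adjusted p = 8.62e-05, and Fkbp14, a collagen-folding prolyl isomerase of the endoplasmic reticulum, one of 1.47 ± 0.28 SE, adjusted p = 8.34e-04. In Loxl3 (10.48 to 13.6 CPM) and Fkbp14 (4.69 to 6.41 CPM), clone 3 lay just above the highest control library (2.16 to 7.94 and 0.777 to 3.92 CPM), and with the clone as a random block their adjusted p-values were 0.203 and 0.347.

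Of 31 proteases and inhibitors tested, 4 were called higher (12.9%) and 1 lower (3.23%), beside 3.64% and 2.16% of all genes. The share called lower was thus near that of all genes. The fit without G7 gave 6 and 5, beside 6.38% and 6.67%, and the random block 2 and 0. Adamts4, an aggrecan-cleaving protease, was at 35.3, 70.9, 37.6 and 36.2 CPM against 0.305 to 1.67 (median 0.601) CPM (log2 fold change 5.78 ± 0.33 SE, adjusted p = 1.49e-10). Replicate 2 was higher than the other clone 3 libraries, and without it the log2 fold change was 5.47 ± 0.35 SE, adjusted p = 2.58e-09. Serpinb5, a serpin known as maspin, was at 5.0, 5.44, 7.07 and 8.10 CPM against 0 to 1.42 (median 0.416) CPM (log2 fold change 3.65 ± 0.62 SE, adjusted p = 2.84e-04). Mmp28, a metalloprotease of epithelia, was at 1.67 to 2.89 CPM against 0.186 to 1.81 CPM (log2 fold change 1.80 ± 0.47 SE, adjusted p = 0.00895). Adam8, a membrane metalloprotease, fell, from 0.187 to 6.51 CPM in the controls to 0.482 to 0.927 CPM (log2 fold change -2.25 ± 0.67 SE, adjusted p = 0.0212). Both Mmp28 and Adam8 overlapped the controls in G7 alone. As a description, the log2 fold changes without it were 2.60 ± 0.26 SE for Mmp28 and -2.56 ± 0.42 SE for Adam8. Neither was called with the clone as a random block (adjusted p = 0.526 and 0.987).

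Averaged over the list, epithelial genes of clone 3 lay between control G7 and the other 3 controls, and the calls differed with and without G7. Cdh1 was at 306, 306, 300.4 and 312 CPM in clone 3, with control means of 629.5, 654 and 663 CPM in D8, H12 and A4 and 15.1 CPM in G7. The adhesion protein Epcam was at 291, 283, 296 and 298 CPM, with control means of 652, 772 and 855 CPM and 14.0 CPM in G7. Clone 3 lay below 12 control libraries and above the 4 of G7 in both genes, and against all 4 controls the log2 fold changes were -0.68 ± 0.86 SE, adjusted p = 0.626 for Cdh1 and -0.97 ± 0.92 SE, adjusted p = 0.496 for Epcam. Without G7 the log2 fold changes were -1.07 ± 0.05 SE for Cdh1 and -1.37 ± 0.10 SE for Epcam. With the clone as a random block the direction turned, to 0.28 for Cdh1 and 0.068 for Epcam, and neither was called.

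The keratin Krt8 was at 75.9, 77.0, 84.4 and 75.1 CPM, with control means of 970.5, 387 and 799.6 CPM in D8, H12 and A4 and 27.4 CPM in G7 (log2 fold change -2.81 ± 0.96 SE, adjusted p = 0.0425). Its filament partner Krt18 was at 143, 158, 148 and 153 CPM against 63.5 to 1349 (median 785) CPM (log2 fold change -2.35 ± 0.80 SE, adjusted p = 0.0431). Ehf, an epithelial transcription factor of the ETS family, was at 2.89, 3.94, 2.43 and 1.99 CPM against 0.702 to 96.4 (median 21.5) CPM (log2 fold change -3.50 ± 1.20 SE, adjusted p = 0.0435), and the mucin Muc1 at 0.964, 0.984, 1.71 and 0.787 CPM against 0.871 to 4.09 (median 2.40) CPM (log2 fold change -1.16 ± 0.34 SE, adjusted p = 0.0198). With Lsr, a tricellular junction protein named here after its values were seen (log2 fold change -1.05 ± 0.30 SE, adjusted p = 0.0171), these 5 were the epithelial genes called lower. They were 10.6% of 47 tested, beside 2.16% of all genes, and 0 were higher, beside 3.64%. All 5 overlapped the control range, and G7 was the lowest control clone in each. These calls did not hold throughout: without clone 3 replicate 2 edgeR called 0 epithelial genes lower and 1 higher, and so did voomLmFit with the clone as a random block. Without G7, 30 of 47 were lower and 1 higher, beside 6.67% and 6.38% of all genes. This count is a description and no test, since G7 was set apart by its epithelial genes. Leaving out another control gave 2 lower without D8, 1 without H12 and 0 without A4. The list median was -0.92, beside -0.04 over all genes, and without G7 it was -1.14, beside -0.02.

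**Figure D2:**
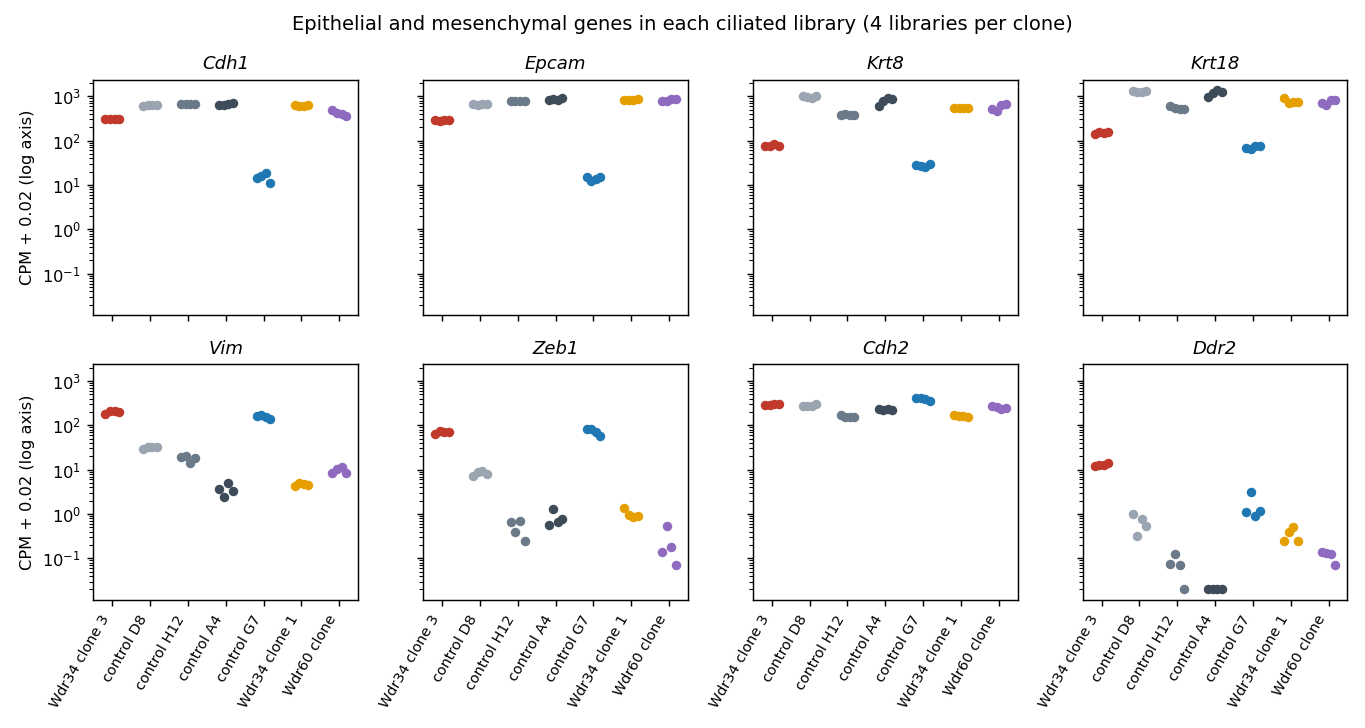
Levels of 4 epithelial and 4 mesenchymal genes as CPM plus 0.02 on a log axis, with 1 point per library and 4 libraries for each of 7 ciliated clones. For Cdh1, Epcam, Krt8 and Krt18 the clone 3 libraries lie between those of G7 and those of the other clones, and for Vim and Zeb1 near those of G7.

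Vim was at 184, 207, 209.7 and 202 CPM in clone 3, above control means of 31.6, 18.4, 3.56 and 155 CPM in D8, H12, A4 and G7. All 4 clone 3 libraries exceeded all 16 control libraries, but the log2 fold change of 1.94 ± 0.79 SE, adjusted p = 0.089 missed the threshold against 4 controls, and was 3.50 ± 0.50 SE without G7. With the clone as a random block the adjusted p for Vim was 0.0494. Zeb1, a repressor of Cdh1, was at 62.7, 73.0, 69.8 and 69.1 CPM with control means of 8.24, 0.477, 0.806 and 73.7 CPM (log2 fold change 1.72 ± 1.13 SE, adjusted p = 0.304; without G7 4.47 ± 0.70 SE; with the clone as a random block, adjusted p = 0.0162). Cdh2 (N-cadherin) was at 282 to 302 CPM, inside the control range of 150.2 to 418 CPM (log2 fold change 0.15 ± 0.24 SE, adjusted p = 0.717). The repressor Snai2 was not tested, at 0.0463 to 0.521 CPM against 0 to 0.187 CPM, and Twist1 had 0 counts in all 20 libraries.

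Of 17 mesenchymal genes tested, 3 were called higher (17.6%) and 0 lower, beside 3.64% and 2.16% of all genes. Ddr2, a collagen receptor kinase, was at 11.9, 12.6, 12.8 and 14.2 CPM against 0 to 3.05 (median 0.205) CPM (log2 fold change 4.52 ± 0.81 SE, adjusted p = 4.28e-04). The receptor kinase Axl was at 340.0, 422, 345 and 357 CPM against 80.4 to 247 (median 186) CPM (log2 fold change 1.12 ± 0.25 SE, adjusted p = 0.00357), and the surface enzyme Nt5e (CD73) at 0.663 to 0.964 CPM against 0 to 0.268 CPM (log2 fold change 3.03 ± 0.54 SE, adjusted p = 4.29e-04). In these 3 genes every clone 3 library lay above every control library. Without G7, 7 of 17 mesenchymal genes were higher and 0 lower, beside 6.38% and 6.67% of all genes, as a description only. With the clone as a random block 3 were higher, Ddr2 with Vim and Zeb1, whereas Axl (adjusted p = 0.0818) and Nt5e (adjusted p = 0.526) were not called.

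**Figure D3:**
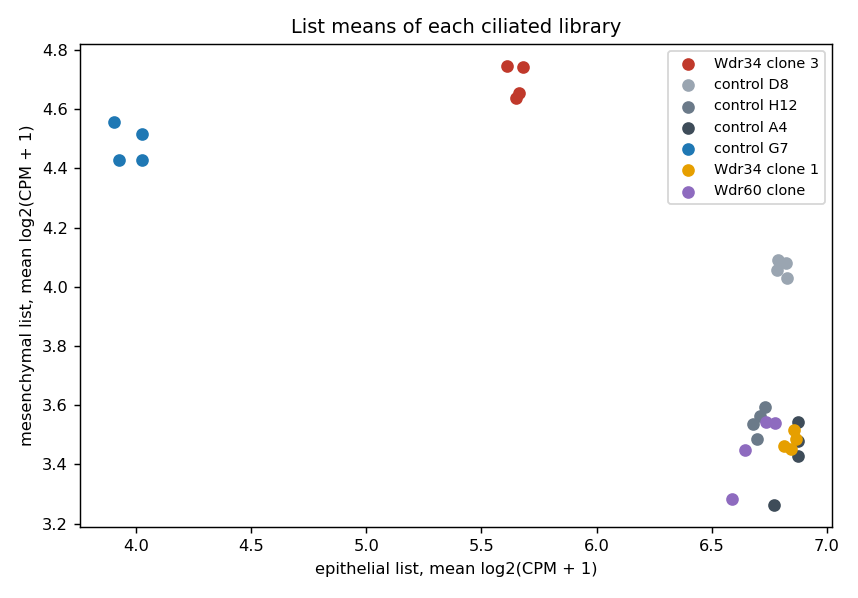
Mean log2(CPM + 1) over the tested epithelial genes (x axis) and mesenchymal genes (y axis), with 1 point per ciliated library. The 4 clone 3 libraries lie at 5.61 to 5.68 on the epithelial axis, between G7 (3.91 to 4.03) and the other controls (6.68 to 6.87). On the mesenchymal axis they lie at 4.64 to 4.75, above every other library, in a mean that includes members such as Nt5e, close to 0 in the controls. Summed over the whole mesenchymal list, clone 3 (2074 to 2186 CPM) overlapped G7 (2081 to 2317.5 CPM).

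Integrins, the cell's matrix receptors, gave 2 higher (12.5%) and 1 lower (6.25%) of 16 tested, beside 3.64% and 2.16% of all genes, without G7 3 and 3, beside 6.38% and 6.67%, and with the clone as a random block 1 and 0. Itga7, a laminin receptor subunit, was at 41.3, 42.6, 41.7 and 42.0 CPM against 6.93 to 20.2 (median 9.37) CPM (log2 fold change 1.93 ± 0.23 SE, adjusted p = 4.97e-06), and Itgb8, which activates latent TGF-beta, at 20.7, 23.2, 22.5 and 21.7 CPM against 6.21 to 15.1 (median 9.69) CPM (log2 fold change 1.14 ± 0.19 SE, adjusted p = 2.65e-04). Itga2, a collagen receptor subunit of epithelia, fell to 0 to 0.181 CPM from 0 to 11 CPM (log2 fold change -5.05 ± 1.55 SE, adjusted p = 0.0249). Control G7 was as low as clone 3 in Itga2, with a mean of 0.0156 CPM. The random block gave an adjusted p of 0.0756 for Itgb8 and above 0.9 for Itga2.

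The collecting duct label was checked against its markers. Aqp2, the vasopressin-regulated water channel, had 0 counts in all 28 ciliated libraries, and the vasopressin receptor Avpr2 was at 0 to 0.121 CPM in clone 3 and 0 to 0.227 CPM in the controls. Hoxb7, a marker of the ureteric bud lineage, was present at 74.6 to 79.6 CPM in clone 3 and 44.1 to 99.5 CPM in the controls. Of 34 collecting duct and tubule genes tested, 6 were higher (17.6%) and 1 lower (2.94%), beside 3.64% and 2.16% of all genes. The share called lower was thus near that of all genes. The fit without G7 gave 10 and 3, beside 6.38% and 6.67%, and the random block 4 and 0. Aqp1, the water channel of the proximal tubule and thin limb, was at 31.5, 30.5, 32.4 and 29.0 CPM against 0.110 to 6.58 (median 2.47) CPM (log2 fold change 3.57 ± 0.64 SE, adjusted p = 4.77e-04). Gata3, a factor of the ureteric bud, was at 2.53, 3.24, 2.76 and 3.15 CPM against 0 to 1.56 (median 0.216) CPM (log2 fold change 2.83 ± 0.63 SE, adjusted p = 0.00294), and the carbonic anhydrase Car12 at 76.8, 76.2, 82.7 and 78.8 CPM against 5.31 to 52.2 (median 21.3) CPM (log2 fold change 1.67 ± 0.46 SE, adjusted p = 0.0141). Bmp7, a growth factor of the kidney epithelium, fell to 3.19, 3.65, 2.82 and 3.15 CPM, from 0.636 to 63.8 (median 36.3) CPM (log2 fold change -3.31 ± 1.08 SE, adjusted p = 0.0341), with G7 lower still at a mean of 0.923 CPM.

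Markers of other cell types were counted beside these results, and their part in them was not tested. Of 15 fibroblast markers, 5 passed the filter and 1, Dcn, was higher, while the other 4 had log2 fold changes under 0 and the median was -1.25. Without G7 the median was -1.65, with 1 higher and 1 lower. Their summed level was 34.8 to 44.2 CPM in clone 3, 1.46 to 2.23 CPM in G7 and 18.3 to 44.4 CPM in the other controls, and Tcf21 and Thy1 had 0 counts in all 20 libraries. Below the filter, Pdgfra was at 0.463 to 1.27 CPM in clone 3 and 0 to 0.174 CPM in the controls, and Col3a1 at 0.241 to 0.695 against 0 to 0.0611 CPM, so that every clone 3 library exceeded every control library in both at levels near 1 CPM or under. Endothelial markers (2 of 14 tested, 0 called) summed to 9.04 to 11.1 CPM against 6.85 to 19.5 CPM, with Cdh5 at 0 counts in clone 3. Immune markers (2 of 14 tested) summed to 208 to 228 CPM against 142 to 323 CPM and gave 1 lower, Cd68, at 0.663 to 0.879 CPM against 0.890 to 4.34 CPM (log2 fold change -1.57 ± 0.40 SE, adjusted p = 0.00877), while Cd3e, Ms4a1, Adgre1 and Tyrobp had 0 counts in all 20. The muscle list (3 of 12 tested) summed to 404 to 449 CPM against 375 to 584 CPM and gave 1 higher, desmin (Des), at 0.601 to 0.939 against 0 to 0.659 CPM (log2 fold change 2.31 ± 0.57 SE, adjusted p = 0.00617), with Myod1 at 0 counts. Cartilage and bone markers (3 of 12 tested, 0 called) summed to 24.6 to 30.7 CPM against 6.37 to 124.5 CPM. Podocyte markers (2 of 8 tested, 0 called) summed to 238 to 244 CPM against 165 to 228 CPM, above every control library. Proximal tubule markers (3 of 11 tested) gave 1 higher, Aqp1, and summed to 91.9 to 111 CPM, between G7 (327 to 571 CPM) and the other controls (16.9 to 38.3 CPM).

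Of 41 secreted growth factor and angiogenic genes tested, 9 were called higher (22%) and 1 lower (2.44%), beside 3.64% and 2.16% of all genes. The share called lower was thus near that of all genes. The fit without G7 gave 10 and 8, beside 6.38% and 6.67%, and the random block 6 and 0. Members such as Vegfc and Ptn, close to 0 in the controls, passed the filter through clone 3, so their sign says little. Vegfc, a lymphatic growth factor, had 272 counts in clone 3 and 0 in the controls, at least 347-fold higher. Ptn (pleiotrophin), a heparin-binding factor, had 663 counts against 3, a ratio of 845 (exact 95% counting interval 288 to 4107). Angpt1, a ligand of the endothelial receptor Tie2, was at 3.62, 3.53, 3.76 and 3.61 CPM against 0 to 0.210 (median 0) CPM (log2 fold change 5.78 ± 0.60 SE, adjusted p = 7.34e-07). Igf2, a fetal growth factor from an imprinted locus, was at 18.8, 19.3, 17.7 and 19.5 CPM against 0 to 3.49 (median 0.777) CPM (log2 fold change 3.97 ± 0.74 SE, adjusted p = 6.22e-04). The 4 genes were uniform across the clone 3 libraries, and with the clone as a random block their adjusted p-values were 0.0168, 3.17e-06, 0.00762 and 0.00148.

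Of 28 chemokine, cytokine and complement genes tested, 9 were called higher (32.1%) and 1 lower (3.57%), beside 3.64% and 2.16% of all genes. The list median was 1.20, but replicate 2 set the size of several changes. Members such as Ccl2 and Il15, close to 0 in the controls, passed the filter through clone 3, so their sign says little. The monocyte chemokine Ccl2 was at 2.23, 27.2, 1.22 and 1.99 CPM in clone 3, with 3 counts in the 16 controls together. Ccl20, a chemokine for Th17 and dendritic cells, was at 0.964, 18.8, 0.8286 and 0.555 CPM against 0 to 0.830 (median 0.126) CPM. Replicate 2 stood far above its sister libraries in both, and without it the log2 fold changes were 6.71 ± 0.54 SE, adjusted p = 6.38e-08 for Ccl2 and 2.07 ± 0.59 SE, adjusted p = 0.0241 for Ccl20. Il15, a cytokine for natural killer cells, was at 3.37, 2.84, 2.49 and 2.87 CPM against 0 to 0.142 (median 0) CPM (log2 fold change 7.08 ± 0.50 SE, adjusted p = 3.37e-09). C4b, complement component 4, was at 78.1, 72.6, 71.0 and 71.6 CPM against 0.0579 to 1.62 (median 0.509) CPM (log2 fold change 6.72 ± 0.40 SE, adjusted p = 2.41e-10). Both Il15 and C4b were even across the 4 libraries. Without replicate 2, 6 of 28 members were higher and 0 lower, and with the clone as a random block 5 were higher. The fit without G7 gave 13 of 27 higher and 4 lower, beside 6.38% and 6.67% of all genes.

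Of 39 interferon response genes tested, 9 were called higher (23.1%) and 0 lower, beside 3.64% and 2.16% of all genes. A log2 fold change above 0 was seen in 37 (median 0.65, beside -0.04 over all genes). Members such as Ifi44 and Iigp1, close to 0 in the controls, passed the filter through clone 3, so their sign says little. Gbp7, a guanylate-binding GTPase of antimicrobial defence, was at 11.6, 15.7, 10.6 and 11.6 CPM against 0.054 to 1.13 (median 0.253) CPM (log2 fold change 4.91 ± 0.45 SE, adjusted p = 1.23e-07), and its relative Gbp3 at 2.11, 6.14, 3.81 and 4.21 CPM against 0 to 0.610 (median 0.0903) CPM (log2 fold change 4.62 ± 0.56 SE, adjusted p = 6.16e-06). Ifi44 was at 2.29, 2.08, 3.15 and 2.17 CPM against 0 to 0.490 (median 0) CPM (log2 fold change 4.79 ± 0.76 SE, adjusted p = 1.31e-04), and the GTPase Iigp1 at 1.51, 2.43, 1.93 and 1.20 CPM against 0 to 0.472 (median 0) CPM (log2 fold change 4.88 ± 0.70 SE, adjusted p = 4.28e-05). All 4 clone 3 libraries exceeded all 16 control libraries in these genes. The summed level of the whole list was 2488 to 2541 CPM in clone 3, under the 2883 to 2950 CPM of G7 and over the 1264 to 1719 CPM of the other controls. The Gbp genes share sequence, so that reads could be split among them, and their counts are uncertain to that extent. Without clone 3 replicate 2, 9 of 41 members were called higher, and with the clone as a random block 4. The fit without G7 gave 15 of 40 higher, beside 6.38% of all genes.

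The guanylate-binding genes Gbp2, Gbp3 and Gbp7, all called higher, are neighbours on chromosome 3, and the 100 bases before their start sites are shown because these members moved together. The sequences are RefSeq promoters of GRCm38.p6 on the plus strand, and the capitals mark matches, read on the minus strand, of GAAA followed by any 2 bases and a second GAAA, the core pattern of an interferon-stimulated response element.
Gbp2, chr3:142620563-142620662: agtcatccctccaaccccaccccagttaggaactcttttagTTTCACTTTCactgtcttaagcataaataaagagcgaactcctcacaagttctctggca
Gbp3, chr3:142559944-142560043: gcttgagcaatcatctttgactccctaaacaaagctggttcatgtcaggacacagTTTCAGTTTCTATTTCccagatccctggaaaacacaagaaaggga
Gbp7, chr3:142530236-142530335: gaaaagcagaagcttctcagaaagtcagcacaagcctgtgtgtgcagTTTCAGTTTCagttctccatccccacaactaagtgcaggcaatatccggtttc
The run in capitals in Gbp3 is 2 overlapping matches. Searched on both strands in the 250 bases before the start site, these letters were found in 3.46% of 27025 genes with a promoter entry. Of the 9 interferon genes called higher, 6 had an entry and 3 held a match. A match is a description of the sequence and not a bound site.

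In the Wnt list, 6 of 39 tested were higher (15.4%) and 1 lower (2.56%), beside 3.64% and 2.16% of all genes. The share called lower was thus near that of all genes, and the median log2 fold change was close to 0. The fit without G7 gave 9 and 3, beside 6.38% and 6.67%, and the random block 3 and 0. The ligand Wnt2 was at 1.08, 1.51, 1.55 and 1.25 CPM against 0 to 0.347 (median 0) CPM (log2 fold change 4.56 ± 0.62 SE, adjusted p = 2.50e-05), the receptor Fzd8 at 13.6, 13.0, 13.8 and 12.4 CPM against 0 to 1.74 (median 0.495) CPM (log2 fold change 4.35 ± 0.68 SE, adjusted p = 1.09e-04), and the target gene Sp5 at 1.62 to 3.47 CPM against 0 to 1.10 CPM (log2 fold change 2.97 ± 0.74 SE, adjusted p = 0.0069). Wnt4, a ligand of kidney tubule formation, fell to 9.28 to 12.5 CPM from 11.9 to 78.3 CPM (log2 fold change -1.79 ± 0.51 SE, adjusted p = 0.0162). Wnt2, Fzd8 and Sp5 lay above every control library, and Wnt4 overlapped the controls. Sp5 (adjusted p = 0.397) and Wnt4 (adjusted p = 0.535) were not called with the clone as a random block.

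In the TGF-beta and BMP list, 2 of 36 were higher (5.56%, beside 3.64% of all genes) and 0 lower, and without G7 6 of 35 were higher and 4 lower. Bmper, an extracellular BMP-binding protein, was at 2.59, 3.30, 2.54 and 2.82 CPM against 0 to 1.08 (median 0) CPM (log2 fold change 4.2 ± 0.84 SE, adjusted p = 0.00123), and Inhbb, a subunit of activin B, at 26.8, 20.04, 21.9 and 20.5 CPM against 1.88 to 9.71 (median 5.46) CPM (log2 fold change 2.05 ± 0.31 SE, adjusted p = 6.89e-05). Hedgehog genes, a pathway that depends on cilia, gave 0 calls of 15 tested by edgeR and 0 by voomLmFit, whereas 4 were higher without G7. By edgeR, 3 of the 15 were at an unadjusted p under 0.05, beside 4182 of 12553 over all genes. Targets of YAP and SRF gave 2 higher (5.71%) and 1 lower (2.86%) of 35, near the 3.64% and 2.16% of all genes, 2 and 4 without G7, and 1 and 0 with the clone as a random block. Fhl1, a LIM protein of muscle and stressed cells, was at 49.7 to 50.3 CPM against 1.84 to 16.2 CPM (log2 fold change 2.69 ± 0.37 SE, adjusted p = 2.94e-05), and the coagulation starter F3 (tissue factor) fell to 51.6 to 54.7 CPM from 38.8 to 226 CPM (log2 fold change -1.36 ± 0.44 SE, adjusted p = 0.0327). In F3, clone 3 lay above all 4 libraries of G7 and below those of the other controls, and the adjusted p was 0.0862 without clone 3 replicate 2 and 0.444 with the clone as a random block.

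Of 28 G protein signalling genes tested, 7 were higher (25%) and 2 lower (7.14%), beside 3.64% and 2.16% of all genes. The fit without G7 gave 7 and 6, beside 6.38% and 6.67%, and the random block 4 and 0. Rgs9, a GTPase activator, was at 10.7, 12.9, 12.8 and 13.0 CPM against 0.290 to 1.92 (median 0.818) CPM (log2 fold change 3.65 ± 0.34 SE, adjusted p = 1.45e-07). Both receptors of Cxcl12 were higher: Cxcr4 at 0.740 to 1.14 CPM against 0 to 0.191 CPM (log2 fold change 4.05 ± 0.56 SE, adjusted p = 3.09e-05) and the scavenger Ackr3 at 9.78 to 11.6 CPM against 0.262 to 4.08 CPM (log2 fold change 2.83 ± 0.54 SE, adjusted p = 7.53e-04). Rgs16 had 1 count in the 4 clone 3 libraries and 336 in the controls, none of them in G7. Cxcr4 (adjusted p = 0.107) and Rgs16 (adjusted p = 0.929) were not called with the clone as a random block. Guidance genes gave 3 higher (7.5%) and 2 lower (5.0%) of 40, beside 3.64% and 2.16% of all genes, 4 and 7 without G7, 2 and 1 of 41 without clone 3 replicate 2, and 2 and 1 with the clone as a random block. Epha7, an ephrin receptor, was at 35.1, 33.5, 38.6 and 33.2 CPM against 0 to 2.76 (median 0.156) CPM (log2 fold change 5.87 ± 0.79 SE, adjusted p = 2.11e-05), and Ephb6, a kinase-dead relative, at 1.16 to 1.22 CPM against 0 to 0.599 CPM (log2 fold change 2.46 ± 0.72 SE, adjusted p = 0.019). Ephb2, another ephrin receptor, fell to 26.1 to 28 CPM from 53.9 to 107 CPM (log2 fold change -1.66 ± 0.19 SE, adjusted p = 2.50e-06), and the semaphorin Sema4g to 6.46 to 9.10 CPM from 5.30 to 50.9 CPM (log2 fold change -1.78 ± 0.53 SE, adjusted p = 0.0212).

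Of 35 DNA replication genes and 33 mitosis genes, edgeR called 0 in either direction, with medians of -0.02 and 0.01, and voomLmFit called 0. By edgeR, 10 and 7 of these genes were at an unadjusted p under 0.05, beside 4182 of 12553 over all genes. Among 24 cell cycle brake and cyclin genes, 1 was called higher and 1 lower (4.17% each), near the 3.64% and 2.16% of all genes. Cdkn2c, a Cdk4 and Cdk6 inhibitor, was at 358 to 383 CPM against 78.7 to 356 CPM (log2 fold change 1.13 ± 0.35 SE, adjusted p = 0.0257). Ccnd1 (cyclin D1) fell to 3.42 to 3.81 CPM from 1.65 to 98.4 CPM (log2 fold change -3.41 ± 1.03 SE, adjusted p = 0.0226), with G7 also low at a mean of 2.28 CPM. Without clone 3 replicate 2 neither was called, at adjusted p = 0.0629 for Cdkn2c and 0.0694 for Ccnd1, nor with the clone as a random block, at 0.167 and 0.898. Of 28 glycolysis and hypoxia genes, 3 were higher (10.7%) and 0 lower, beside 3.64% and 2.16% of all genes. The fit without G7 gave 3 and 1, beside 6.38% and 6.67%, and the random block 1 and 0. Egln3, an oxygen-sensing hydroxylase, was at 9.16, 11.2, 7.13 and 8.37 CPM against 0 to 0.510 (median 0) CPM (log2 fold change 6.26 ± 0.70 SE, adjusted p = 2.42e-06), the carbonic anhydrase Car9 at 0.601 to 1.10 against 0 to 0.453 CPM (log2 fold change 2.80 ± 0.66 SE, adjusted p = 0.0048), and the phosphofructokinase Pfkp at 171 to 187 CPM against 44.0 to 128 CPM (log2 fold change 1.08 ± 0.22 SE, adjusted p = 0.00118). The random block gave adjusted p-values of 0.00388 for Egln3, 0.566 for Car9 and 0.521 for Pfkp. Of 32 endoplasmic reticulum stress genes, 1 was lower (3.12%, near the 2.16% of all genes), the lipoprotein receptor Vldlr, at 196 to 224 CPM against 260.3 to 844 CPM (log2 fold change -1.11 ± 0.31 SE, adjusted p = 0.0134). Vldlr was highest in G7, with a mean of 786 CPM, and was not called without G7 (-0.72 ± 0.13 SE, adjusted p = 2.22e-04), without clone 3 replicate 2 (adjusted p = 0.0515) or with the clone as a random block (adjusted p = 0.198). Cholesterol and fatty acid synthesis gave 0 calls of 33 by edgeR and by voomLmFit, with a median of 0.46. By edgeR, 17 of the 33 were at an unadjusted p under 0.05, beside 4182 of 12553 over all genes. Against the controls without G7, 10 were higher. In G7, the summed level of this list (14215 to 16394 CPM) was near that of clone 3 (14810 to 15346 CPM) and above that of the other controls (8858 to 11151 CPM).

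Of 23 Hox genes tested, 0 were higher and 3 lower (13%), beside 3.64% and 2.16% of all genes. All 3 were of the Hoxd cluster on chromosome 2, where 5.86% of tested genes were called lower. Without G7, 2 Hox genes were higher and 4 lower, beside 6.38% and 6.67% of all genes. Without clone 3 replicate 2, 1 was lower, and with the clone as a random block 0 were. Hoxd9 was at 2.17, 2.43, 1.99 and 2.36 CPM against 4.67 to 18.6 (median 11.9) CPM (log2 fold change -2.42 ± 0.34 SE, adjusted p = 3.09e-05), and Hoxd4 and Hoxd3 had log2 fold changes of -1.40 ± 0.44 SE, adjusted p = 0.0282 and -1.07 ± 0.38 SE, adjusted p = 0.0499. Lhx2, a LIM homeobox factor also on chromosome 2, was at 0, 0.116, 0.221 and 0 CPM in clone 3 and 7.73 to 18.6 (median 12.7) CPM in the controls (log2 fold change -7.15 ± 0.53 SE, adjusted p = 6.86e-09). In the skeletal list, 1 of 18 was higher and 1 lower (5.56% each, beside 3.64% and 2.16% of all genes), and without G7 7 of 17 and 2, beside 6.38% and 6.67%. Mef2c had 68 counts in clone 3 and 0 in the controls, at least 86.6-fold higher, while Msx1 fell to 0.181 to 0.521 CPM from 0.310 to 3.38 CPM (log2 fold change -2.07 ± 0.55 SE, adjusted p = 0.0107). Neither was called with the clone as a random block (adjusted p = 0.165 for Mef2c and 0.851 for Msx1).

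Genes outside these lists also changed, and those named were chosen by size of change among genes with a mean of at least 5 CPM in clone 3. Ptprd, a receptor phosphatase, had 861 counts in clone 3 and 1 in the controls, a ratio of 3291 (exact 95% counting interval 589 to 130144). Gpnmb, a lysosomal membrane glycoprotein, was at 36.3, 33.0, 35.0 and 32.9 CPM against 0 to 0.311 (median 0) CPM (log2 fold change 9.35 ± 0.51 SE, adjusted p = 6.05e-11). Gulp1, an engulfment adaptor, was at 17.2 to 19.1 CPM against 0 to 0.218 CPM (log2 fold change 9.0 ± 0.52 SE, adjusted p = 1.75e-10), and Dclk1, a doublecortin-like kinase, at 13.3 to 16.5 CPM against 0 to 0.511 CPM (log2 fold change 7.47 ± 0.66 SE, adjusted p = 8.49e-08). Xlr, Clip4 and Phactr2 had log2 fold changes of 7.87, 7.06 and 6.68. Each of these 7 genes was under 1 CPM in every control library and above 5 CPM in every clone 3 library.

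On the lower side, Praf2, a membrane trafficking protein, was at 0.121, 0.347, 0.663 and 0.509 CPM against 20.1 to 27.0 (median 23.7) CPM (log2 fold change -5.78 ± 0.25 SE, adjusted p = 2.84e-12). Obsl1, a cytoskeletal adaptor, was at 0.362 to 1.10 CPM against 4.13 to 79.2 CPM (log2 fold change -6.32 ± 1.04 SE, adjusted p = 1.89e-04), with G7 at a mean of 4.65 CPM and the other controls at 59.96 to 73.1 CPM. The tetraspanin Tspan18 was at 1.55 to 2.03 CPM against 12.4 to 51.9 CPM (log2 fold change -3.70 ± 0.55 SE, adjusted p = 6.39e-05), and the cyclic AMP phosphodiesterase Pde4d at 1.27 to 1.99 CPM against 2.06 to 25.3 CPM (log2 fold change -2.98 ± 0.71 SE, adjusted p = 0.0051). The transcription factor Sox13, and Trp53i11, Ltk and Lppr3 had log2 fold changes of -2.54, -2.92, -2.26 and -2.02. With the clone as a random block, Praf2 (adjusted p = 0.0121) and Dcdc2a (adjusted p = 0.0432) stayed under 0.05, and the other 10 of the 12 lower genes chosen by size of change, with a control mean of at least 5 CPM, did not.

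The lower calls were spread unevenly over the chromosomes. On chromosome 2, the chromosome of Wdr34, Lhx2 and the Hoxd cluster, the median log2 fold change of 973 tested genes was -0.42, 86.4% of them were below 0, and 57 were called lower (5.86%, against 2.16% of all genes). Chromosome 15, with Krt8, Krt18 and Angpt1, had a median of -0.41 over 493 genes, with 31 called lower (6.29%). Chromosome 4 had a median of 0.34 over 810 genes and chromosome 18 one of 0.21 over 347, with 33 called higher (9.51%, against 3.64%). The chromosome 18 share includes the clustered protocadherins described under other observations. The shift ran along the whole of chromosomes 2 and 15: bins of 20 Mb had medians of -0.60 to -0.36 on chromosome 2 (10 bins) and -0.57 to -0.19 on chromosome 15 (6 bins). Medians on the remaining chromosomes were between -0.10 and 0.08. After subtracting its chromosome's median from each fold change, an alternative added after the data were seen, 446 genes were called higher and 215 lower, 31 of the latter on chromosome 2. A DNA copy number was not measured, and its part in these values was not tested.

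**Figure D4:**
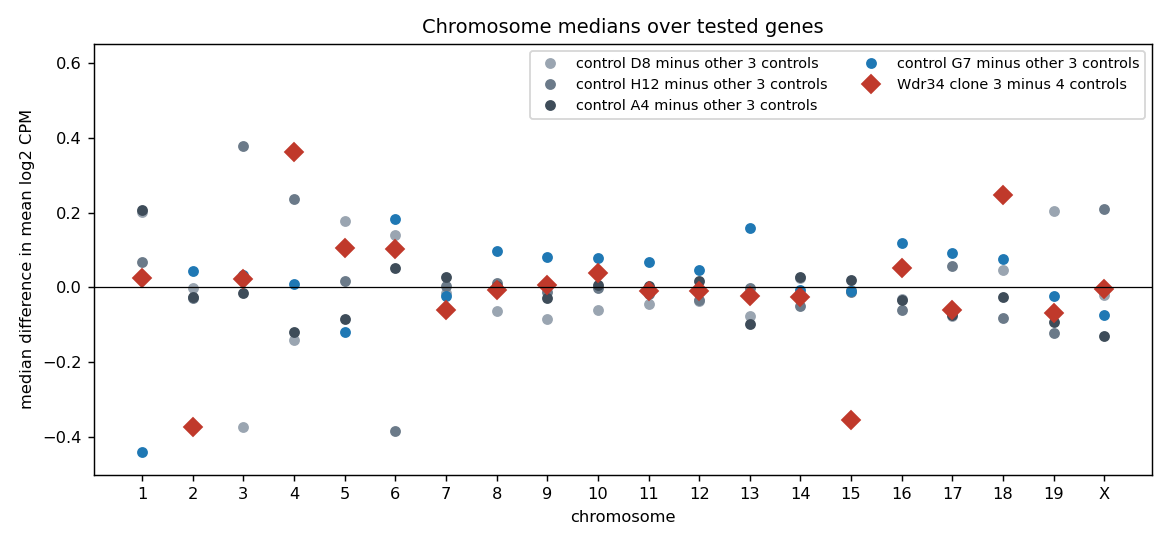
Median difference in mean log2 CPM over the tested genes of each chromosome, for clone 3 minus the mean of 4 control clones (diamonds) and each control clone minus the other 3 (points). Clone 3 lies at -0.37 on chromosome 2 and -0.35 on chromosome 15, where the control clones lie between -0.03 and 0.04, and single control clones are shifted elsewhere, G7 by -0.44 on chromosome 1.

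Clone 3 also differed from the other ciliated mutants. Against the 8 libraries of the Wdr34 clone labelled 1 and the Wdr60 clone, 836 genes were higher (6.79%) and 684 lower (5.55%) of 12320 tested. These comparisons share the 4 clone 3 libraries, so their overlap is not independent: 398 of the 456 genes called higher against controls and tested here were higher in both, 197 of 254 called lower were lower in both, and 0 changed direction. Col6a1 was at 0.506 to 4.86 CPM in the other mutants (log2 fold change 4.91 ± 0.40 SE, adjusted p = 2.63e-07), Dcn at 0 to 0.316 CPM (8.03 ± 0.32 SE, adjusted p = 3.27e-10) and Lox at 0 to 0.113 CPM (8.65 ± 0.42 SE, adjusted p = 2.02e-09). Vim was at 4.24 to 11.6 CPM (4.80 ± 0.25 SE, adjusted p = 2.79e-09) and Zeb1 at 0.0498 to 1.36 CPM (6.82 ± 0.37 SE, adjusted p = 5.42e-09), both far under clone 3. Cdh1 was at 358 to 627 CPM (-0.75 ± 0.16 SE, adjusted p = 0.00123) and Krt8 at 464 to 665 CPM (-2.84 ± 0.11 SE, adjusted p = 2.02e-10), above clone 3. Of 47 epithelial genes 29 were lower and 1 higher, and of 17 mesenchymal genes 8 were higher and 0 lower. The Wdr60 clone lay near clone 3 in Phactr2 and Dcdc2a: Phactr2 had a mean of 7.31 CPM in the Wdr60 clone and 0.058 CPM in Wdr34 clone 1, and Dcdc2a 3.11 and 39.8 CPM. Neither gene passed the test of clone 3 against both mutants together (1.09 ± 0.94 SE, adjusted p = 0.368 for Phactr2 and -2.02 ± 0.87 SE, adjusted p = 0.0732 for Dcdc2a). Wdr34 was at 39.8 to 62.1 CPM there (-1.15 ± 0.12 SE, adjusted p = 4.52e-06).

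**Figure D5:**
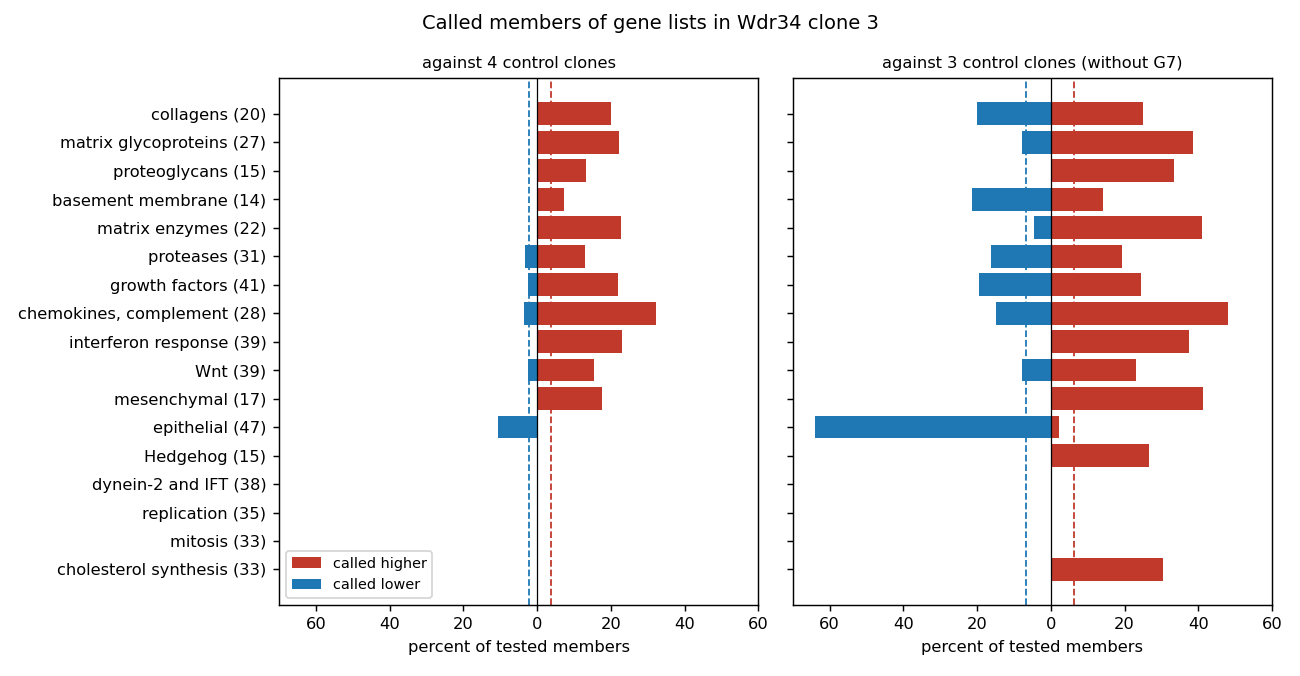
Percent of tested members called higher (right of 0) and lower (left of 0) in clone 3 for 17 gene lists, against 4 control clones and against 3 without G7, with dashed lines at the percent of all genes called and the number tested against 4 controls in brackets. Matrix, chemokine and interferon lists exceed the dashed line for higher calls in both panels. Without G7, collagens (4 of 20) and basement membrane genes (3 of 14) also exceed the line for lower calls. The epithelial bar holds 5 of 47 genes against 4 controls and 30 without G7. Since G7 was set apart by its epithelial genes, the second count is no test.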

How the data were processed

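RNA-seq counts of reads per gene were deposited for 52 libraries. Per the labels and the study's methods, the authors aligned paired reads to GRCm38 (mm10) and counted them with featureCounts; R 3.4.4 and DESeq2 1.18.1 are named in the submitters' processing notes, and strand and multimapping settings are not given in the sources used here. From these raw counts, 4 libraries of clone 3 were compared with 16 controls with edgeR 4.0.16 in R 4.3.3 (default expression filter, TMM, quasi-likelihood test, 2-sided, Benjamini-Hochberg adjustment over all genes tested). SE is the log2 fold change divided by the square root of F. limma 3.58.1 (voomLmFit) and DESeq2 1.42.0 were alternatives. CPM values are scaled over the 28 ciliated libraries. Intervals and floors of 3 counts cover counting error only. Named genes were the 12 largest called in each direction (all libraries outside the control range, at least 5 CPM in the higher group), every collagen called, 4 dynein-2 chains, up to 4 called members of each list, and 9 state markers; 1 gene that the rule names is not reported here. Members and lists were chosen with earlier results of these data known. Scripts were tested on simulated data. RefSeq symbols of GRCm38.p6 matched 12528 of the 12553 tested genes.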

Additional observations from a re-analysis of the deposited data

Results flagged for a closer look

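In groups of 4 libraries, 111 sets of values were checked for a library far from its 3 sister libraries, and 10 were found, where chance alone gives about 1 in 20. The total of control G7 replicate 4 was 28084979 counts, against 16052187 to 16549441 in the other G7 libraries.

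In clone 3, replicate 2 stood apart in 5 genes. Ccl2 was at 27.2 CPM there against 1.22 to 2.23 CPM in the other clone 3 libraries, and Ccl20 at 18.8 CPM against 0.555 to 0.964 CPM. Adamts4 was at 70.9 CPM against 35.3 to 37.6 CPM, Adam8 at 0.927 CPM against 0.482 to 0.555 CPM, and Sox13 at 6.49 CPM against 5.25 to 5.37 CPM. Replicate 1 stood apart in Loxl3, at 13.6 CPM against 10.48 to 11.01 CPM, in Nt5e, at 0.964 CPM against 0.663 to 0.695 CPM, and in Rgs9, at 10.7 CPM against 12.8 to 13.0 CPM. Rgs16 was at 0.0552 CPM in replicate 3 and had 0 counts in the other clone 3 libraries.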

How the results depend on the processing

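Against controls, the 457 genes higher and 271 lower became 783 higher when genes with at least 1 count in any library were kept, and 170 higher and 172 lower with at least 10 counts in every library. They became 0 and 0 with the libraries of each clone summed, 241 and 10 with the clone as a random block, and 798 and 834 without control G7, and 173 were lower without D8. With no fold limit they were 1237 and 1372, and at an adjusted p under 0.01, 105 were lower. Leaving out 1 library gave 397 to 495 higher and 131 to 338 lower. DESeq2 called 451 higher and 399 lower. Against the other mutants, the 836 higher became 1274 and 426 under the same filters, 236 when summed and 2755 with no fold limit, and the 684 lower became 150 when summed and 2817 with no fold limit, with 831 to 853 and 625 to 700 when 1 library was left out. Genes entirely above or below the controls numbered 526 above with at least 10 counts in every library, 1956 and 1702 without G7, and 811 to 944 and 662 to 764 without 1 library.

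Epithelial genes called lower were 0 when summed, 0 with the random block, 2 without D8, 1 without H12, 0 without A4 and 0 at an adjusted p under 0.01. Without G7 they were 30, a description only, since G7 was set apart by these genes. Chemokine and complement genes called higher were 0 when summed and 5 with the random block. Interferon genes called higher were 0 when summed, 4 with the random block, 15 without G7 and 15 with no fold limit. Matrix genes called higher were 0 when summed and 31 without G7. The direction turned under the random block for Cdh1 (0.28), Epcam (0.068) and Dync2h1 (0.015), and without H12 for Cdh2 (-0.0258) and Dync2li1 (0.10), none of them called in either case. The 93 named genes that were called kept their direction under 2824 gene and alternative pairs, with 288 losing the call, 93 of them when summed and 47 with the random block.

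Chromosome medians were -0.41 (chromosome 2), -0.40 (15) and 0.35 (4) with RLE factors and -0.40, -0.39 and 0.37 with at least 10 counts in every library. Without G7 they were -0.37 for chromosome 2, -0.38 for 15, 0.36 for 4 and 0.25 for 18. Chromosome 2 was at -0.42 without H12, chromosome 15 at -0.39 without D8 and -0.39 without A4, and chromosome 4 at 0.29 without D8, 0.41 without H12 and 0.30 without A4. The cause of these changes was not tested.

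Replicate numbers in the labels did not pair the libraries: same-number correlations of deviations were -0.11, 0.10, -0.04 and -0.17. With the replicate block, 421 genes were higher and 192 lower against controls, and 813 and 653 against the other mutants.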

Other observations

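Clustered protocadherins, neuronal adhesion proteins encoded side by side on chromosome 18, were looked at after the values were seen. Of 21 tested, 11 were called higher (52.4%) and 0 lower. Of all genes 3.64% were higher and 2.16% lower, and on chromosome 18 9.51% and 0.865%, shares that include this cluster itself. Pcdhga4 was at 1.86 ± 0.646 (SD, n = 4) CPM in clone 3, with control means of 0.309, 0.642, 0.117 and 0.474 CPM in D8, H12, A4 and G7 (log2 fold change 2.25 ± 0.51 SE, adjusted p = 0.00345). The list's summed level was 239 to 262 CPM in clone 3, 206 to 259 CPM in G7 and 89.7 to 118 CPM in the other controls. With the clone as a random block 3 were higher. These genes share exons and sequence, so reads could be split among them, and chromosome 18 as a whole had a median log2 fold change of 0.21. The part of either in these counts was not tested.

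Antioxidant genes known as targets of the factor Nrf2, a list also drawn up after the values were seen, gave 8 of 32 lower (25%) and 0 higher. Of all genes, 2.16% were lower and 3.64% higher. Gsr, glutathione reductase, was at 179 ± 2.97 (SD, n = 4) CPM in clone 3, 141 CPM in G7 and 556, 533 and 785 CPM in D8, H12 and A4 (log2 fold change -1.49 ± 0.46 SE, adjusted p = 0.0268). The quinone reductase Nqo1 was at 0.368 ± 0.170 (SD, n = 4) CPM against 0.495 CPM in G7 and 1.71, 1.64 and 2.70 CPM in the others (log2 fold change -2.13 ± 0.62 SE, adjusted p = 0.0182). Clone 3 and G7 were the low clones in both. Without clone 3 replicate 2, 1 of the 32 was lower, with the clone as a random block 0, and without G7 16, beside 6.67% of all genes.

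Of 15 imprinted genes tested, chosen in the same way, 5 were higher and 0 lower (3.64% and 2.16% of all genes), namely Dcn, Igf2, H19, Plagl1 and Peg10. Without G7 5 were higher and 1 lower, and 4 were higher both with the clone as a random block and, of 16 tested, without clone 3 replicate 2. The noncoding RNA H19, the neighbour of Igf2, was at 26.1 ± 1.66 (SD, n = 4) CPM in clone 3, with control means of 8.96 CPM in D8 and 0.0136 to 0.891 CPM in H12, A4 and G7 (log2 fold change 3.4 ± 1.05 SE, adjusted p = 0.0258). Peg10 was at 484 ± 14.6 (SD, n = 4) CPM, with 347 CPM in G7 and 122 to 169 CPM in the other controls (log2 fold change 1.29 ± 0.29 SE, adjusted p = 0.00342). Plagl1, a zinc finger factor, was at 20.1 ± 1.29 (SD, n = 4) CPM against control means of 1.38 to 8.31 CPM (log2 fold change 2.20 ± 0.52 SE, adjusted p = 0.00481).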
